A study of Mus musculus with 12 samples.

Results

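Captured astrocytes were compared with the flowthrough cells of the same capture in aged mice labelled as astrocyte knockouts of Bmal1 (gene symbol Arntl). The comparison takes 6 of the 12 libraries of the series, all of those labelled KO: captured astrocytes of mice 132, 60, 62 and 73, and flowthrough of mice 132 and 60. Mice 132 and 60 therefore give both fractions of 1 brain each, while mice 62 and 73 give captured cells alone. The strain is Bmal fl/fl; ALDH1L1-CreERT2 on a C57BL\6 background, and the KO mice are the Cre+ animals. The other 6 libraries have the same layout in Cre- mice labelled WT (captured astrocytes of mice 56, 57, 64 and 78, flowthrough of mice 56 and 64). Tamoxifen was given by oral gavage to all 8 mice, Cre+ and Cre-, on 5 days at 2 mg each when they were 2 months old, and brains were taken at 20 months. The CreERT2 is driven by the Aldh1l1 promoter, so deletion is limited to cells in which that promoter was active during those days. After collagenase digestion and removal of debris, cells that bound anti-ACSA-2 magnetic beads were kept as astrocytes and the unbound cells as flowthrough.

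Astrocytes are the glial cells that clear glutamate and potassium from synapses, share ions and metabolites through gap junctions, and supply neurons with lipids and glutamine. ACSA-2 is an epitope of ATP1B2, a subunit of the sodium pump at the astrocyte surface, so bead capture sorts cells by the product of Atp1b2. What the beads leave behind in a digested brain is rich in microglia, the resident macrophages, with cells of vessels, of the choroid plexus and of blood. BMAL1 pairs with CLOCK to activate circadian genes through E-box sites, and its targets, the PER, CRY and REV-ERB proteins, feed back on that activity.

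Total counts were 44.7 to 49.4 M (M stands for 1e+06) in the 4 captured libraries and 51.2 to 51.6 M in the 2 flowthrough libraries, and mitochondrial genes took 12.6% to 17% and 7.95% to 12.7% of them. Captured 73 stands apart from the other captured libraries: it was the only 1 of the 6 with female-type expression (Xist at 45.1 CPM, counts per M counts, against at most 0.190), and it had the highest summed CPM of the microglial, ependymal and choroid plexus markers among them. On the first principal component of the 6 libraries (65.1% of the variance) flowthrough 132 lay at -149, flowthrough 60 at -89.8, captured 73 at -1.29 and captured 132, 62 and 60 at 65.3, 74.5 and 101. Flowthrough 60 was thus the nearer of the 2 flowthrough libraries to the captured ones. The Arntl count was not lower under the KO label: it was 9.50 to 13.3 CPM in captured libraries labelled KO and 5.38 to 8.80 CPM in those labelled WT. The summed level of the genes that BMAL1 activates ran the other way, from 649 to 796 CPM in the former and 849 to 1073 CPM in the latter. The Arntl count sums the whole gene, so it does not show whether exons were removed. KO below means libraries labelled KO. In bulk RNA, fewer cells of a type and less RNA per cell cannot be told apart.

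Throughout, CPM values are scaled by TMM factors and listed in the order captured 132, 60, 62 and 73 against flowthrough 132 and 60. Differences are log2 fold changes, captured minus flowthrough, with their standard errors, and were called at a Benjamini-Hochberg adjusted p under 0.05 over all genes in the quasi-likelihood test of edgeR. Of 20997 genes tested, 1890 (9.0%) were higher and 3003 (14.3%) lower in captured astrocytes, 23.3% in all, and the median over all genes was 0.02. The counts called in each gene list below are to be read beside these shares. The side of the flowthrough held the larger differences: the called genes had a median of 1.11 when higher and -1.85 when lower, and 125 against 1392 of them differed by at least 4-fold. Captured and flowthrough libraries did not overlap in 44.0% of all genes (19.1% higher and 24.9% lower) and in 1818 of the 1890 and 2989 of the 3003 called. The counts depend on the libraries. Leaving out flowthrough 132, the library poorest in astrocyte RNA, left 91 genes higher and 683 lower; leaving out captured 73 gave 2931 and 3881. The number higher also went to 1090, 1149 and 1219 without captured 132, 60 and 62. With the mouse as a block, which rests on mice 132 and 60, it was 3789 genes higher (18.0%) and 4630 lower (22.1%). That fit has only 2 residual degrees of freedom, so its adjusted p values, given below beside some genes, rest on few data. A fit of the 6 KO libraries alone, which takes no spread from the WT libraries, called 793 higher and 2025 lower. No gene called here was called in the opposite direction by any of these fits. They reuse the same libraries, so this is not an independent check of direction.

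Among non-overlapping genes at or above 3 in mean log2 CPM, the 12 with the largest called differences toward the captured cells included 4 that granule cells of the cerebellum are known for (Cbln3, Gabra6, Cbln1 and Neurod1). Cbln3, a synapse organiser of cerebellar granule cells, was at 26.0, 38.6, 31.0 and 16.5 CPM against 1.96 and 5.79 CPM (2.85 ± 0.59, adjusted p = 0.00668). Cacng5, an auxiliary subunit of AMPA receptors found in Bergmann glia, was at 34.4, 28.5, 41.5 and 18.6 CPM against 5.01 and 6.06 CPM (2.47 ± 0.31, adjusted p = 0.000724). Timp4, an inhibitor of matrix proteases, was at 485, 465, 445 and 238 CPM against 64.1 and 120.2 CPM (2.15 ± 0.34, adjusted p = 0.00194). In all of these the lowest captured library was 73, and it still lay above both flowthrough libraries. Spon2, Gabra6, Cbln1, Gria4, Neurod1, Fam20a, Hrh1 and Th were also among the 12, between 2.15 (Th) and 2.72 (Spon2). The called genes with the highest CPM in captured cells, among those at least 2-fold higher, were Aldoc, Ckb, Sparcl1, Ndrg2, Gpm6b, Selenow, Cpe, Dbi, Sfxn5 and Gstm1. Aldoc, the brain isoform of fructose-bisphosphate aldolase and a marker of astrocytes, was at 9062, 9867, 13078 and 4214 CPM against 1683 and 3471 CPM (1.81 ± 0.43, adjusted p = 0.0127). Per length, on the RPKM scale (counts per kilobase and M counts), the group means of Aldoc were 2661 in captured and 821 in flowthrough libraries and those of Ckb, the brain creatine kinase, 4259.7 and 1969.5. Without flowthrough 132, Cacng5, Fam20a, Timp4 and Th kept their calls, while the adjusted p of Cbln3 became 0.0971, of Spon2 0.230 and of Aldoc 0.176.

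**Figure D1:**
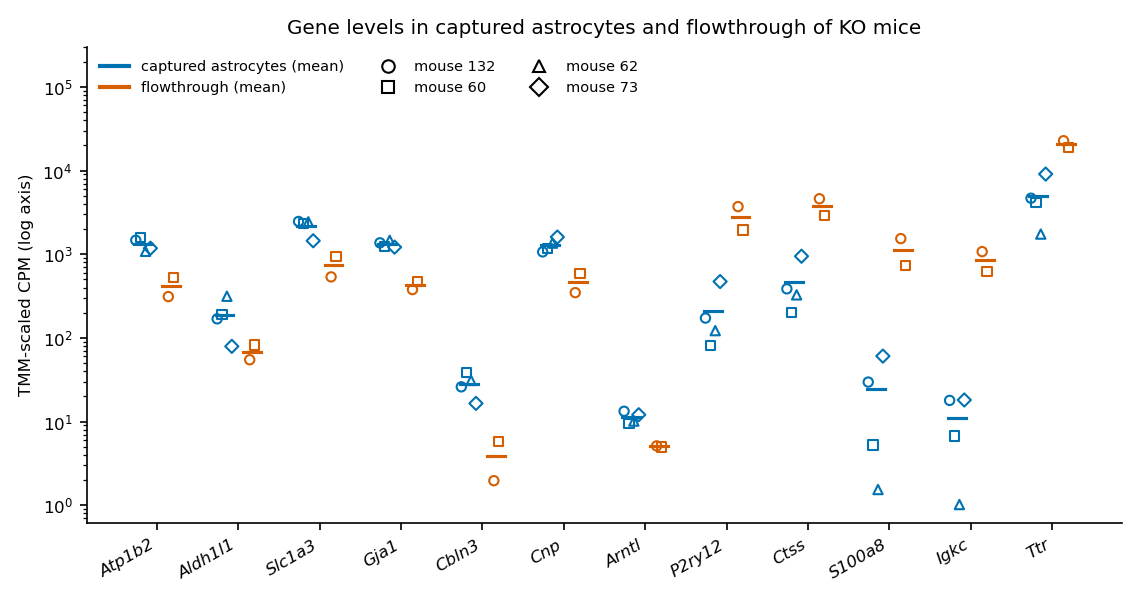
Levels of 12 genes in the 6 KO libraries (vertical log axis, TMM-scaled CPM); each symbol is 1 library, its shape gives the mouse, short lines are group means, blue is captured astrocytes and orange is flowthrough. Flowthrough lies below every captured library for Atp1b2, Slc1a3, Gja1, Cbln3, Cnp and Arntl and above every one for P2ry12, Ctss, S100a8, Igkc and Ttr, while for Aldh1l1 captured 73 (79.3 CPM) lies below flowthrough 60 (81.9 CPM).

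The antigen of the beads and the markers of astrocytes were higher in the captured fraction. Atp1b2 (ENSMUSG00000041329, chromosome 11, 69599736 to 69605942 in GRCm38) was at 1469.6, 1571, 1084 and 1181 CPM against 312 and 526 CPM, which is 3.17-fold (1.66 ± 0.26, adjusted p = 0.00183). Aldh1l1, the folate enzyme whose promoter drives the CreERT2, was at 169, 191, 315 and 79.3 CPM against 54.8 and 81.9 CPM (1.46 ± 0.42, adjusted p = 0.0279). The captured libraries were all above flowthrough for Atp1b2, but for Aldh1l1 captured 73 lay just below flowthrough 60. Of the 32 astrocyte markers, 25 were called higher and none lower, against 9.0% of all genes, with a median of 1.51 against 0.02. In the fit of the 6 KO libraries alone 20 were called higher. Fgfr3, a receptor for fibroblast growth factors, was at 141, 153, 213 and 107 CPM against 32.8 and 52.1 CPM (1.85 ± 0.27, adjusted p = 0.00145). Gja1 and Gjb6, which encode the connexins of astrocyte gap junctions, differed by 1.63 ± 0.25, adjusted p = 0.00156 and 1.62 ± 0.23, adjusted p = 0.00135. Ednrb, the endothelin B receptor, was at 665, 592, 568 and 424 CPM against 130.2 and 198 CPM (1.78 ± 0.28, adjusted p = 0.00180). Astrocyte RNA was also present in the flowthrough, where Gja1 was at 378 and 476 CPM against 1368, 1237, 1467 and 1215 CPM in captured libraries. The summed level of the list was 36475, 41818, 42205 and 21598 CPM against 9701 and 17858 CPM, so captured 73 exceeded flowthrough 60 by little. Gfap, the intermediate filament of reactive and fibrous astrocytes, did not pass, with 1634, 3329.7, 2374 and 1041 CPM against 337 and 1385 CPM (1.28 ± 0.60, adjusted p = 0.141), and neither did Slc1a2 (1.10 ± 0.48, adjusted p = 0.116), Glul (0.69 ± 0.24, adjusted p = 0.0582) or Clu (0.56 ± 0.27, adjusted p = 0.153). All 4 passed in the blocked fit, in which 32 of the 32 markers were called (adjusted p = 0.00194 for Gfap, 0.00617 for Slc1a2, 0.00511 for Glul and 0.00534 for Clu). Without flowthrough 132, 7 of the 32 were called, Atp1b2, Fgfr3, Gja1, Gjb6, Ednrb and Mlc1 among them. Aldh1l1 lost its call there (adjusted p = 0.280) and without captured 60 (0.0511).

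Markers of Bergmann glia, the radial astrocytes of the cerebellum, were called higher in 9 of 10 cases (median 1.72). Gdf10, a secreted TGF-beta family factor, was at 18.8, 9.05, 12.8 and 7.80 CPM against 2.92 and 2.32 CPM (2.21 ± 0.34, adjusted p = 0.00173). Gria1 and Gria4, AMPA receptor subunits that Bergmann glia use to sense climbing and parallel fibres, differed by 2.05 ± 0.38, adjusted p = 0.00412 and 2.36 ± 0.42, adjusted p = 0.00323. Sept4, a septin of the glial processes, was at 579, 486, 710.4 and 599 CPM against 158 and 218 CPM (1.66 ± 0.24, adjusted p = 0.00145). The captured libraries were above flowthrough in all but Hopx, a homeobox gene of radial glia. Fabp7, the fatty acid binding protein of radial glia, was the 1 that did not pass, at 2814, 2978, 2243 and 1668 CPM against 684 and 1179.5 CPM (1.38 ± 0.55, adjusted p = 0.0885; 0.00477 in the blocked fit). Without flowthrough 132, 2 of the 10 were called. Among the regional patterning factors of astrocytes, 6 of 25 were higher and 2 lower. Pax3, a dorsal patterning factor, was at 5.47, 5.26, 5.33 and 3.85 CPM against 1.19 and 1.56 CPM (1.85 ± 0.29, adjusted p = 0.00180), and Meis1, a homeobox cofactor, at 29.0, 31.2, 30.6 and 27.5 CPM against 11.6 and 15.7 CPM (1.12 ± 0.25, adjusted p = 0.00962). Otx2, which the choroid plexus also expresses, ran the other way at 14.4, 12.0, 8.08 and 15.7 CPM against 56.6 and 33.9 CPM (-1.85 ± 0.32, adjusted p = 0.00303). Pax3 kept its call without flowthrough 132, whereas Meis1 (0.152) and Otx2 (0.0701) did not; 1 of the list was then higher and none lower, and without captured 132 or 60 it was 4 higher and 1 lower.

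**Figure D2:**
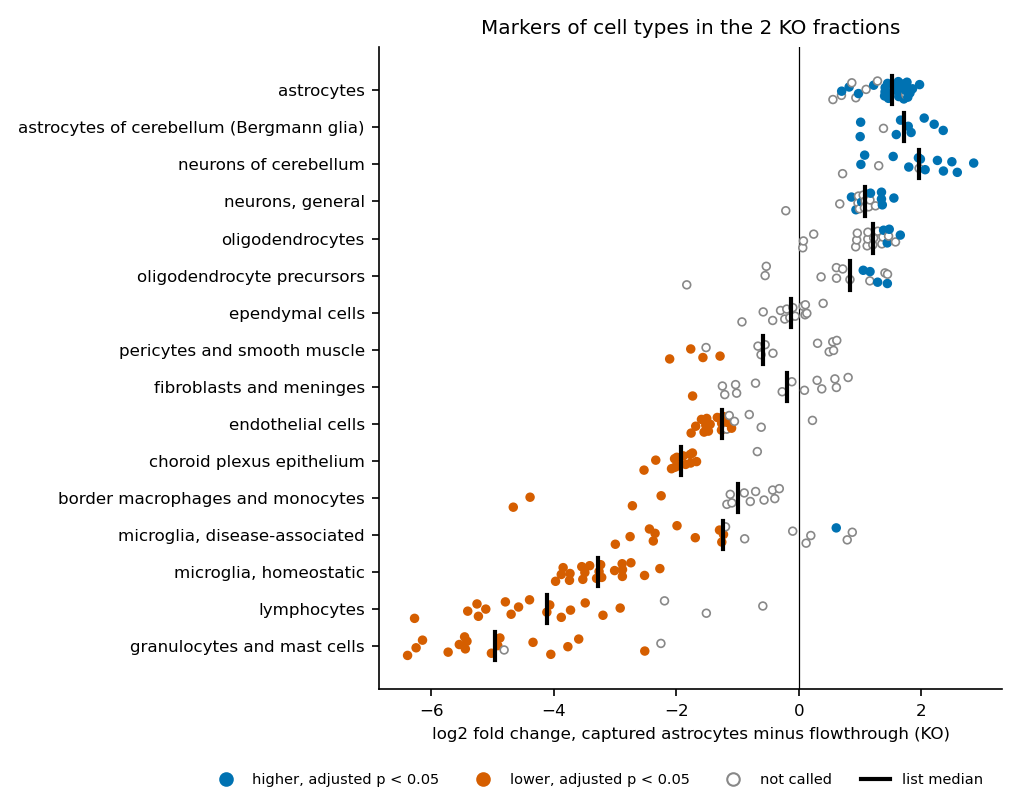
Log2 fold changes (horizontal axis, captured astrocytes minus flowthrough) of the tested members of 16 cell type lists; each point is 1 gene, filled blue when called higher, filled orange when called lower and open when not called, and black bars are list medians. Medians run from -4.97 for granulocytes and mast cells to 1.96 for neurons of the cerebellum, with ependymal cells at -0.12.

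Some neuronal and oligodendrocyte markers were also higher in captured libraries. Of 15 markers of cerebellar neurons 12 were higher (median 1.96), of 20 general neuronal markers 8 (median 1.08) and of 20 markers of excitatory and inhibitory neurons 3 (median 1.03). In the fit of the 6 KO libraries alone these counts were 9, 1 and 2. No member of these lists was lower. Car8, a protein of Purkinje cells, was at 109, 104, 86.3 and 61.9 CPM against 15.6 and 31.2 CPM (1.95 ± 0.39, adjusted p = 0.00581). Pvalb, the calcium-binding protein of fast-spiking interneurons, was at 213, 185, 199 and 109.7 CPM against 37.0 and 52.6 CPM (1.98 ± 0.33, adjusted p = 0.00245). Snap25, a component of the synaptic vesicle fusion machinery, was at 1270.3, 1504, 1557 and 633 CPM against 263 and 584 CPM (1.55 ± 0.44, adjusted p = 0.0269). Flowthrough 60 came close to captured 73 for Snap25, and for Camk2a (1201, 2278, 1432 and 633 CPM against 333 and 1429.8 CPM; 0.65 ± 0.69, adjusted p = 0.526; 0.0151 in the blocked fit) and Kif5a (3993, 5945, 4395 and 2424 CPM against 938 and 3357 CPM; 0.96 ± 0.53, adjusted p = 0.207; 0.00801) it exceeded that library. The summed level of the general neuronal list was 8106, 10945, 9188 and 4813 CPM against 1973 and 5717 CPM. None of these neuronal markers stayed called without flowthrough 132 (adjusted p of 0.0561 for Pvalb, 0.0980 for Car8 and 0.292 for Snap25). Leaving out captured 132, 60 or 62 left 2 of the 20 general markers called in each case, leaving out captured 73 left 12, leaving out flowthrough 60 left 16, and the blocked fit called 19; for the excitatory and inhibitory list the counts were 5 without captured 73, 9 without flowthrough 60 and 15 in the blocked fit. The part of neuronal RNA in the astrocyte and pathway results was not tested.

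Of 20 markers of oligodendrocytes, the myelinating glia, 4 were higher: Cnp, Opalin, Tspan2 and Nkx6-2. Cnp, a myelin enzyme, was at 1067, 1163, 1358 and 1606 CPM against 348 and 587 CPM (1.47 ± 0.34, adjusted p = 0.0110). Mbp, the basic protein of myelin, was at 18157, 22508, 29413 and 11773 CPM against 11477 and 23155 CPM (0.24 ± 0.37, adjusted p = 0.676). Captured 73 was the highest library for Cnp and near the lowest for Mbp, so the myelin genes did not keep 1 order across libraries. The summed level of the list was 26388, 30504, 38845 and 25317 CPM against 15598 and 30099 CPM, so flowthrough 60 exceeded captured 132 and 73. The list median was 1.21 with captured 73 and 0.75 without it, when 3 were called, and 2 were called without captured 132 or 62. Opalin lost its call without captured 73, 132 or 62 or either flowthrough library (adjusted p = 0.0633 without captured 73). Among 15 markers of oligodendrocyte precursors 4 were higher: Ptprz1 (1.44 ± 0.33, adjusted p = 0.0103), Cacng4 (1.16 ± 0.25, adjusted p = 0.00807), Sox6 (1.05 ± 0.28, adjusted p = 0.0216) and Olig1 (1.28 ± 0.42, adjusted p = 0.0467). Ptprz1, a receptor phosphatase that astrocytes also express, was at 246, 285, 206 and 173 CPM against 56.3 and 111 CPM. Pdgfra, the growth factor receptor that defines the precursors, was at 14.9, 15.9, 14.1 and 10.8 CPM against 8.44 and 9.77 CPM (0.61 ± 0.22, adjusted p = 0.0698; 0.0157 in the blocked fit). No marker of either list was called without flowthrough 132, and the blocked fit called 8 oligodendrocyte markers higher and 1 lower, and 8 precursor markers higher and 2 lower.

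The genes by which astrocytes handle transmitters were largely on the captured side. Lists share members, so the pathway lists here and below are not separate from the astrocyte markers. Slc1a3 is in both, as are Atp1b2, the antigen of the beads, and Mlc1 in the lists that follow. Of 18 genes of glutamate and GABA uptake and metabolism, 11 were higher and none lower (median 1.14). The fit of the 6 KO libraries alone called 4 higher. Slc1a3, the glutamate transporter GLAST, was at 2464, 2321, 2441 and 1449 CPM against 536 and 948 CPM (1.55 ± 0.30, adjusted p = 0.00497). Slc6a9, the glycine transporter GLYT1, was at 71.6, 72.9, 101 and 78.2 CPM against 21.7 and 26.6 CPM (1.74 ± 0.28, adjusted p = 0.00209). For both, the 4 captured libraries lay above both flowthrough libraries, and for Slc6a9 the 4 were within 71.6 to 101 CPM. Without flowthrough 132 only Slc6a9 of the 18 kept its call (Slc1a3 0.0874); 6 were called without captured 132. Of 23 receptors for transmitters, 13 were higher and 1 lower (median 1.27). Gabrg1, a GABA receptor subunit, was at 62.8, 58.3, 57.0 and 43.3 CPM against 12.7 and 24.4 CPM (1.58 ± 0.30, adjusted p = 0.00494), and Grm3, a metabotropic glutamate receptor, at 135, 173, 167 and 138 CPM against 34.9 and 85.0 CPM (1.36 ± 0.39, adjusted p = 0.0274). The count higher was 8 without captured 60, and none of the receptors was called without flowthrough 132 (Gabrg1 0.0804).

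Of 24 genes of potassium, water and ion balance, 11 were higher and 1 lower (median 0.85). Kcnn2, a calcium-activated potassium channel, was at 14, 11.9, 10.9 and 11.3 CPM against 2.99 and 4.88 CPM (1.61 ± 0.26, adjusted p = 0.00216). Car4, a membrane carbonic anhydrase of capillaries, was the 1 lower, at 35.3, 30.7, 26.5 and 41.2 CPM against 112 and 92.6 CPM (-1.62 ± 0.17, adjusted p = 0.000341), with no overlap between the fractions. Of 18 genes of gap junctions and adhesion, 10 were higher and none lower (median 1.27), among them Mlc1 (1.45 ± 0.24, adjusted p = 0.00247), whose product sits at perivascular endfeet, and Cdh10 (1.67 ± 0.33, adjusted p = 0.00544), a cadherin. Without flowthrough 132, 2 genes of the first list were higher and 1 lower, and 3 of the second were higher; Kcnn2, Car4, Atp1b2, Gja1, Gjb6 and Mlc1 were those kept, and Cdh10 (0.0971) was not. In the first list 2 were lower without captured 60 or 73.

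Secreted factors that shape synapses were found on both sides. Of 21 genes, 10 were higher and 2 lower (median 1.02). Sparcl1, or hevin, which promotes synapse formation, was at 5018, 4799, 5348 and 2576 CPM against 1220.3 and 1947 CPM (1.49 ± 0.30, adjusted p = 0.00610). Its antagonist Sparc was at 6977, 7199.9, 5786 and 2751 CPM against 3324 and 3811 CPM (0.67 ± 0.32, adjusted p = 0.155) and did not pass (adjusted p = 0.00235 in the blocked fit). Ncan, the proteoglycan neurocan, was at 796, 834, 1012 and 524 CPM against 173 and 375 CPM (1.53 ± 0.31, adjusted p = 0.00636), and Nlgn3, a neuroligin, at 62.7, 60.2, 61.9 and 45.8 CPM against 15.6 and 28.3 CPM (1.39 ± 0.27, adjusted p = 0.00510). Captured 73 was the lowest captured library for all of these, and for Sparc it lay below both flowthrough libraries. On the flowthrough side were Thbs1, a thrombospondin, at 5.98, 3.08, 7.06 and 10.8 CPM against 54.1 and 32.0 CPM (-2.68 ± 0.65, adjusted p = 0.0144), and Tgfb1, the cytokine TGF-beta 1, at 0.233, 0.0948, 0.190 and 0.131 CPM against 1.5 and 1.22 CPM (-3.05 ± 0.56, adjusted p = 0.00412). No gene of the list was called without flowthrough 132 (Sparcl1 0.108, Tgfb1 0.0532), and 6 were higher without captured 132.

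Lipid synthesis genes were on the captured side by small amounts. Of 29 genes of cholesterol and fatty acid synthesis 18 were higher and 1 lower, with a median of 0.84 and a range from -0.75 to 1.24. With the 6 KO libraries alone it was 7 higher and 0 lower. Sc5d, a late enzyme of cholesterol synthesis, was at 182, 173, 192 and 154 CPM against 82.3 and 98.7 CPM (0.96 ± 0.14, adjusted p = 0.00145). Scd2, a fatty acid desaturase, was at 1547, 1555, 1669 and 1249 CPM against 492 and 786 CPM (1.24 ± 0.24, adjusted p = 0.00538). Hmgcs1, at the entry to the pathway, was at 437, 486, 571 and 297 CPM against 176 and 269.5 CPM (1.01 ± 0.27, adjusted p = 0.0214). Each was above flowthrough in all 4 captured libraries. The exception was Ebp, a sterol isomerase, at 32.6, 25.5, 38 and 38.6 CPM against 65.2 and 47.9 CPM (-0.75 ± 0.23, adjusted p = 0.0391). Of the list 1 gene, Sc5d, remained called without flowthrough 132 (Scd2 0.0970, Hmgcs1 0.268, Ebp 0.397), and Ebp lost its call without captured 132, 60 or 62 as well. Apoe, the main apolipoprotein of the brain, which astrocytes and activated microglia both make, was at 6308, 7110.3, 2369 and 5757 CPM against 2441 and 3796 CPM (0.79 ± 0.38, adjusted p = 0.157; 0.00192 in the blocked fit). Of 24 lipid transport genes 3 were higher, Lcat (1.91 ± 0.33, adjusted p = 0.00278), Lrp4 (1.26 ± 0.17, adjusted p = 0.00101) and Abcg4 (1.30 ± 0.26, adjusted p = 0.00558), and 2 lower, Abca1 (-1.06 ± 0.22, adjusted p = 0.00776) and Npc2 (-0.66 ± 0.15, adjusted p = 0.00966). Over all genes 9.0% were higher and 14.3% lower. Lrp4 alone kept its call without flowthrough 132; in the blocked fit 8 were higher and 8 lower, and without captured 73 5 and 7. In fatty acid oxidation, 7 of 22 were higher and 3 lower. Acsl3, an acyl-CoA synthetase, was at 80.5, 89.8, 74.3 and 80.4 CPM against 15.4 and 35.4 CPM (1.68 ± 0.27, adjusted p = 0.00222) and kept its call without flowthrough 132, the only 1 of that list to do so, while Cpt1a, the gate of mitochondrial oxidation, was at 48.0, 39.2, 49.4 and 34.1 CPM against 71.6 and 62.5 CPM (-0.65 ± 0.17, adjusted p = 0.0217; 0.229 without flowthrough 132). The 3 lower became 1 without captured 132 and 0 without captured 60.

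In glycolysis, 2 of 22 genes were higher and 2 lower, beside 9.0% and 14.3% of all genes, and isoforms of some enzymes parted. Aldoc and Pfkm, a phosphofructokinase, were on the captured side, Pfkm at 389, 410.2, 571 and 164 CPM against 103 and 157 CPM (1.56 ± 0.40, adjusted p = 0.0182). Hk2, the inducible hexokinase, was at 8.60, 6.25, 8.51 and 17.8 CPM against 98.6 and 72.9 CPM (-3.06 ± 0.32, adjusted p = 0.000341), and Slc16a3, the lactate exporter MCT4, at 0.761, 0.687, 0.711 and 2.64 CPM against 8.74 and 6.00 CPM (-2.61 ± 0.69, adjusted p = 0.0209). The 2 flowthrough libraries held Hk2 at more than 4 times the level of any captured library. The widely expressed Aldoa was at 2342, 2379, 2500.5 and 1555 CPM against 1877 and 1871 CPM (0.23 ± 0.20, adjusted p = 0.433). Hk2 alone of the list kept its call without flowthrough 132, and Slc16a3 lost its call without captured 132, 60 or 62 as well; without captured 73 the list had 9 higher and 3 lower, and in the blocked fit 10 and 3. Astrocytes hold the glycogen of the brain, and of 20 genes of its metabolism 7 were higher and 2 lower. The phosphorylases again parted: Pygb, of brain, was at 431, 492, 698 and 297 CPM against 197 and 256 CPM (1.08 ± 0.28, adjusted p = 0.0198) and Pygm, of muscle, at 151, 175, 196 and 73.0 CPM against 56.5 and 64.9 CPM (1.29 ± 0.32, adjusted p = 0.0158), while Pygl, of liver, was at 9.55, 9.95, 10.2 and 9.67 CPM against 41.1 and 19.8 CPM (-1.63 ± 0.35, adjusted p = 0.00777). The subunits of phosphorylase kinase did likewise, with Phka1 at 1.25 ± 0.23, adjusted p = 0.00399 and Phka2 at -1.24 ± 0.26, adjusted p = 0.00669. None of the glycogen genes was called without flowthrough 132 (Pygb 0.229, Pygl 0.195, Phka1 0.0811), and the blocked fit called 12 higher and 3 lower. Ppp1r3g, a glycogen-targeting subunit of protein phosphatase 1, was at 3.76, 5.99, 4.60 and 3.67 CPM against 1.37 and 3.54 CPM (0.87 ± 0.35, adjusted p = 0.0915; 0.0118 in the blocked fit).

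**Figure D3:**
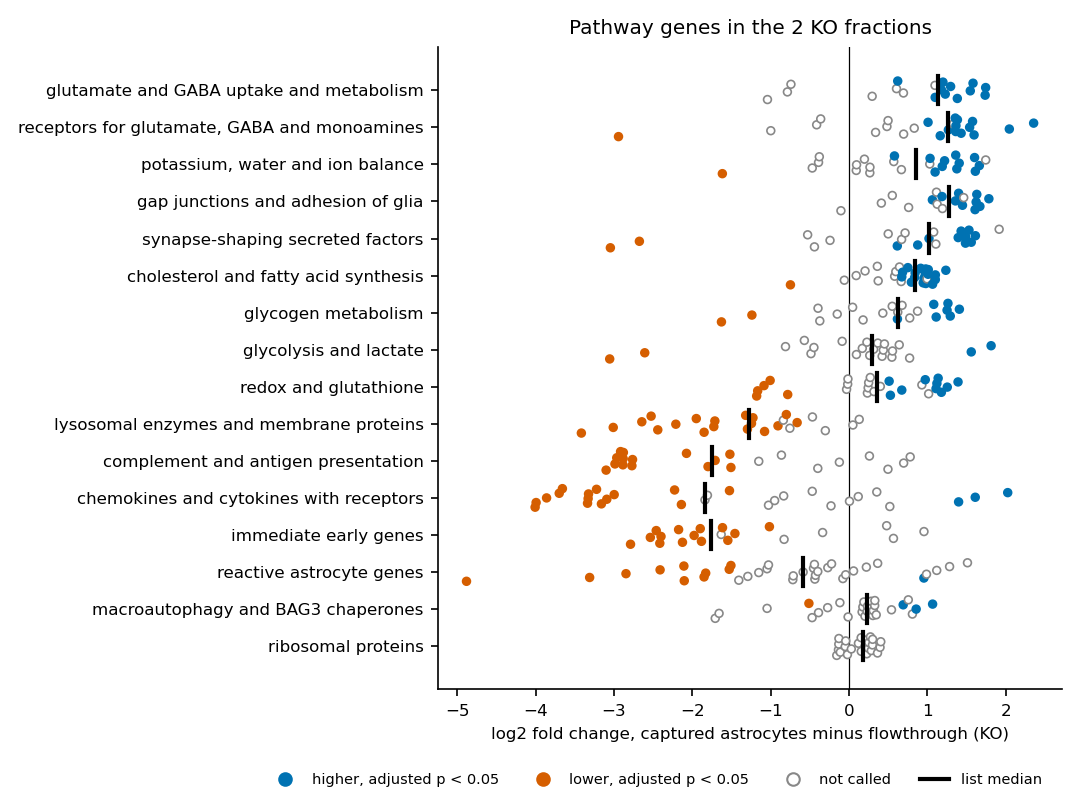
Log2 fold changes (horizontal axis, captured astrocytes minus flowthrough) of the tested members of 16 pathway lists; each point is 1 gene, filled blue when called higher, filled orange when called lower and open when not called, and black bars are list medians. Medians run from -1.84 for chemokines and cytokines (-2.92 without captured 73) to 1.27 for receptors and for gap junctions, and the ribosomal proteins, with a median of 0.18, hold no called gene.

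Redox genes were found on both sides. Of 26, 10 were higher and 5 lower. Prdx6, a peroxiredoxin rich in astrocytes, was at 2246, 2520.4, 2327 and 1593 CPM against 783 and 1214 CPM (1.12 ± 0.24, adjusted p = 0.00790), Gstm1, a glutathione transferase, at 2426, 2956, 2299 and 1336 CPM against 659 and 1233 CPM (1.25 ± 0.36, adjusted p = 0.0287) and Mt1, a metallothionein, at 1856, 2447, 1927 and 1157 CPM against 582 and 1097 CPM (1.14 ± 0.34, adjusted p = 0.0352). Nfe2l2, which encodes the regulator NRF2, was lower at 101, 96.1, 92.4 and 119 CPM against 259 and 199 CPM (-1.17 ± 0.19, adjusted p = 0.00230), as were Nqo1 (-0.78 ± 0.18, adjusted p = 0.0123) and Hmox1 (-1.18 ± 0.20, adjusted p = 0.00244). These are known targets of NRF2, as are Gstm1 and Prdx6, which were higher. Gpx1, a glutathione peroxidase, was at 152, 182, 157 and 197 CPM against 389 and 342 CPM (-1.09 ± 0.17, adjusted p = 0.00182). For Gpx1 and Nfe2l2 the highest captured library was 73, and all 4 lay below flowthrough. Gpx1 alone was called without flowthrough 132 (Prdx6 0.136, Nfe2l2 0.0533), and 5 genes were higher without captured 132 and 6 without captured 60.

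Of 25 transcription factors of astrocytes 12 were higher and 3 lower (median 0.86). Npas3 was at 36.3, 35.9, 35.3 and 24.6 CPM against 9.77 and 13.4 CPM (1.51 ± 0.24, adjusted p = 0.00209). Gli1, the readout of sonic hedgehog signalling, was at 4.31, 2.58, 2.84 and 1.68 CPM against 0.919 and 0.476 CPM (2.03 ± 0.42, adjusted p = 0.00709). Nfia, a factor of astrocyte fate, was at 364, 377, 349.6 and 337 CPM against 203 and 247 CPM (0.67 ± 0.15, adjusted p = 0.00975). The 3 lower members were Id1 (-1.21 ± 0.34, adjusted p = 0.0264), Hes1 (-0.70 ± 0.23, adjusted p = 0.0490) and the stress factor Atf3 (-2.42 ± 0.64, adjusted p = 0.0201). Without flowthrough 132, Npas3 and Gli1 were the 2 called; the 3 lower members all lost their calls without captured 132 or 62 as well, and 2 of them without captured 60 or flowthrough 60. Among 24 factors of the myeloid and oligodendrocyte lineages, 13 were lower and 5 higher. Ikzf1, a factor of blood lineages, was at 2.07, 2.32, 2.70 and 6.89 CPM against 60.8 and 39.8 CPM (-3.84 ± 0.40, adjusted p = 0.000341). Irf8, which microglia need to form, was at 7.57, 5.19, 8.36 and 24.8 CPM against 127 and 99.3 CPM (-3.30 ± 0.51, adjusted p = 0.00173). Sall1, which holds microglial identity, was at 12.2, 14.9, 12.0 and 23.1 CPM against 87.0 and 63.2 CPM (-2.27 ± 0.25, adjusted p = 0.000420). The 5 higher were oligodendrocyte factors, St18, Sox8, Nkx2-2, Nkx6-2 and Olig1, none of them called without flowthrough 132, when 8 factors were lower; 2 were higher without captured 132, 1 without captured 60 and 3 without flowthrough 60.

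Signalling families were divided between the fractions. In the Notch list 3 of 20 were higher and 6 lower, with Dtx1 at 1.31 ± 0.33, adjusted p = 0.0162 and Hey1 at 0.86 ± 0.23, adjusted p = 0.0234 against Mfng, a modifier of the receptor, at 6.05, 3.72, 5.85 and 9.21 CPM against 51.6 and 28.7 CPM (-2.69 ± 0.34, adjusted p = 0.000711) and the endothelial receptor Notch4 at -1.64 ± 0.37, adjusted p = 0.0104. In the Wnt list 7 of 22 were higher, among them the receptor Fzd1 at 10.4, 7.96, 9.74 and 6.90 CPM against 3.10 and 2.65 CPM (1.60 ± 0.25, adjusted p = 0.00189) and the secreted inhibitor Wif1 at 13.4, 7.04, 6.26 and 3.80 CPM against 1.42 and 0.952 CPM (2.68 ± 0.52, adjusted p = 0.00524), and 1 was lower, the co-receptor Lrp5 (-1.67 ± 0.30, adjusted p = 0.00341). In the FGF and EGF list 8 of 19 were higher and 1 lower. The receptors Fgfr3 and Fgfr2 (1.10 ± 0.25, adjusted p = 0.0110) and the feedback inhibitor Spry2, at 114, 82.9, 102 and 91.4 CPM against 35.3 and 41.1 CPM (1.35 ± 0.16, adjusted p = 0.000499), were on the captured side. The phosphatase Dusp6, another feedback inhibitor, was at 54.0, 41.8, 69.8 and 89.5 CPM against 338 and 206 CPM (-2.09 ± 0.27, adjusted p = 0.000834). Spry2 and Dusp6, which restrain the same pathway, thus had opposite differences with no overlap in either. In the guidance list 5 of 21 were higher and 4 lower, with Sema6d at 43.6, 40.3, 35.7 and 47.4 CPM against 15.9 and 20.2 CPM (1.21 ± 0.18, adjusted p = 0.00158) and Sema4d at 15.6, 14.5, 20.5 and 27.4 CPM against 118 and 82.2 CPM (-2.36 ± 0.24, adjusted p = 0.000338). Mfng, Fzd1, Fgfr3, Spry2, Dusp6, Sema6d and Sema4d, and no other gene of these 4 lists, were called without flowthrough 132 (Dtx1 0.214, Hey1 0.292, Notch4 0.0796, Wif1 0.0543, Lrp5 0.0632, Fgfr2 0.172). The FGF and EGF list had 5 higher without captured 132, 60 or 62, the guidance list 3 higher without captured 132, and the Wnt list 3 lower without captured 73.

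Microglial RNA marked the flowthrough. All 20 markers of homeostatic microglia were called lower in captured astrocytes, against 14.3% of all genes, with a median of -3.28 and no overlap in any of them. Cx3cr1, the fractalkine receptor, was at 184, 90.3, 132 and 393 CPM against 3632 and 2133 CPM (-3.85 ± 0.51, adjusted p = 0.000880). P2ry12, the ADP receptor of resting microglia, was at 173, 80.6, 122 and 471 CPM against 3709 and 1941 CPM (-3.74 ± 0.58, adjusted p = 0.00175). Olfml3 was at 74.5, 49.9, 64.5 and 153 CPM against 1517 and 1001 CPM (-3.88 ± 0.41, adjusted p = 0.000341). Captured 73 held the most microglial RNA of the captured libraries, and captured 60 the least. The summed level of the list was 1982, 1109, 1752 and 5121 CPM against 30529 and 19399 CPM, and no marker had under 508 reads in a captured library. Of the 20, 18 stayed called without flowthrough 132, C1qc being 1 of those that did not (0.0752). In the disease-associated list 10 of 18 were lower and 1 higher. Ctsd, the lysosomal protease cathepsin D, was at 1071, 728, 1196 and 1936 CPM against 8078 and 5317 CPM (-2.44 ± 0.34, adjusted p = 0.00116) and Cd68, a lysosomal protein of phagocytes, at 65.1, 31.0, 60.9 and 188 CPM against 704 and 462 CPM (-2.76 ± 0.55, adjusted p = 0.00585). The member higher in captured cells was Axl, a receptor for apoptotic cells, at 66.3, 68.3, 84.5 and 51.7 CPM against 38.1 and 50.7 CPM (0.61 ± 0.19, adjusted p = 0.0395). The list gave 2 lower without flowthrough 132 (Ctsd kept, Cd68 0.0767, Axl 0.388) and 5 lower without captured 132, 60 or 62. Axl lost its call without those 3 libraries too, and the blocked fit called 3 higher.

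Macrophages of the borders and monocytes behaved unevenly. Ly6c2 and Ccr2, of inflammatory monocytes, were at 4.25, 2.91, 2.99 and 4.88 CPM against 103 and 55.1 CPM (-4.39 ± 0.43, adjusted p = 0.000280) and 1.27, 0.213, 0.782 and 3.52 CPM against 47.9 and 26.5 CPM (-4.66 ± 0.89, adjusted p = 0.00488). F13a1, of perivascular macrophages, was at 29.8, 14.8, 30.4 and 121 CPM against 118 and 103 CPM (-1.18 ± 0.73, adjusted p = 0.265), with captured 73 above flowthrough 132. Of 14 markers 4 were lower, 11 without captured 73, 1 (Ly6c2) without flowthrough 132, and 14 in the blocked fit (F13a1 0.000645).

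Many promoters of myeloid genes carry sites for PU.1, the factor encoded by Spi1. Spi1, named here after its values were seen, was at 0.888, 0.450, 1.23 and 2.84 CPM against 20.7 and 13 CPM (-3.63 ± 0.58, adjusted p = 0.00207). The letters GAGGAAGT, on either strand, occur in the 250 bases upstream of the start in 2.44% of the 32851 promoter windows searched (RefSeq, GRCm38.p6). They occur in 4.70% of the 2704 windows of genes lower in captured astrocytes, in 1.47% of the 1902 windows of genes higher and in 2.45% of the 17649 windows of genes tested. These windows cover 2110, 1400 and 13974 genes, so not every gene lower, higher or tested has a window. Some genes have several windows and count more than once. In the homeostatic microglial list 1 of 15 windows holds the letters, that of C1qc, and in the astrocyte list 0 of 33. Those windows cover 13 of the 20 microglial and 27 of the 32 astrocyte genes, so the lists were not searched whole. A match is a description of the sequence and not a site. The 4 genes shown all hold a match, so they do not stand for the promoters of their cell types. The matches of 4 genes that were lower are shown as examples from microglia and neutrophils: C1qc, of the complement made by microglia (chr4:136893080-136893139, minus strand, 195 bases upstream), S100a8, of neutrophils (chr3:90668871-90668930, plus strand, 172 bases upstream), and Mpo and Prtn3, of neutrophil granules (chr11:87793539-87793576 and chr10:79879539-79879596, plus strand, 224 and 95 bases upstream). Sequences read 5′ to 3′ on the strand of the gene, and capitals mark the match or its reverse complement.
C1qc: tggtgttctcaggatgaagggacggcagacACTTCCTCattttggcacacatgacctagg
S100a8: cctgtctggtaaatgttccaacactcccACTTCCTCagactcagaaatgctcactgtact
Mpo: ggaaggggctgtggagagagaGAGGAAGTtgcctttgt
Prtn3: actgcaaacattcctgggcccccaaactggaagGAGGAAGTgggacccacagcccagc
C1qc itself was at 30.6, 20.5, 32.6 and 121 CPM against 457 and 298 CPM (-2.88 ± 0.58, adjusted p = 0.00584), and Prtn3 at 1.67, 1.66, 2.13 and 3.56 CPM against 15.1 and 10.8 CPM (-2.52 ± 0.35, adjusted p = 0.00107).

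The lists of white blood cells had the medians farthest from 0. Of 18 markers of granulocytes and mast cells 16 were lower, with a median of -4.97, and of 19 lymphocyte markers 16, with a median of -4.12. Without captured 73 these medians were -6.30 and -5.42. S100a8, a subunit of the neutrophil protein calprotectin, was at 29.7, 5.24, 1.54 and 60.6 CPM against 1538 and 732 CPM (-5.55 ± 1.35, adjusted p = 0.0144). Mpo, myeloperoxidase, was at 1.75, 0.0948, 0.142 and 2.19 CPM against 101 and 50.9 CPM (-6.15 ± 1.27, adjusted p = 0.00672). Igkc, the constant region of the immunoglobulin kappa chain, was at 17.9, 6.73, 1.02 and 18.1 CPM against 1074 and 625 CPM (-6.28 ± 1.14, adjusted p = 0.00377). The captured libraries differed among themselves by more than 10-fold in these genes, with 132 and 73 the highest, and all of them lay far below flowthrough. Ighm and Lck, of B and T cells, were at 40.6, 31.8, 45.2 and 55.9 CPM against 481 and 317 CPM (-3.20 ± 0.28, adjusted p = 0.000226) and 2.52, 2.32, 2.91 and 4.49 CPM against 29.4 and 17 CPM (-2.92 ± 0.31, adjusted p = 0.000341). At or above 3 in mean log2 CPM, the 12 non-overlapping genes with the largest differences toward flowthrough were, beside S100a8 and Igkc, Camp, Chil3, Ighg2c, S100a9, Ltf, Ngp, Retnlg, Lcn2, Ly6c2 and Slc2a5, a fructose transporter of microglia (-4.08 ± 0.51, adjusted p = 0.000702). Mki67 and Top2a, expressed in dividing cells, were at 0.148, 0.0474, 0.190 and 1.74 CPM against 8.49 and 5.09 CPM (-3.64 ± 0.93, adjusted p = 0.0183) and 1.61, 0.569, 1.21 and 5.31 CPM against 26.6 and 15.0 CPM (-3.25 ± 0.71, adjusted p = 0.00875). Without flowthrough 132, 3 granulocyte and 8 lymphocyte markers were called; Igkc, Ighm, Lck and Prtn3 were kept, and S100a8 (0.101), Mpo (0.0559), Mki67 (0.149) and Top2a (0.103) were not.

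Red cell genes separated the captured libraries. Hbb-bs, a beta globin, was at 23.3, 11.3, 327 and 27.1 CPM against 959 and 950.2 CPM (-3.30 ± 1.38, adjusted p = 0.105), with captured 62 more than 10 times the other captured libraries and yet under both flowthrough libraries. The alpha and beta globins are near-identical pairs, so the split of reads between copies is uncertain. Slc4a1, the anion exchanger of red cells, was at 1.37, 0.379, 0.616 and 0.599 CPM against 24.2 and 12.6 CPM (-4.62 ± 0.72, adjusted p = 0.00174). Of 8 red cell genes 2 were lower, 7 without captured 62 and 7 in the blocked fit (Hbb-bs -5.87, adjusted p = 1.65e-05), and 1 (Slc4a1) without flowthrough 132.

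Choroid plexus epithelium, which makes the cerebrospinal fluid, was on the flowthrough side: 13 of 14 markers were lower (median -1.93). Ttr, the thyroid hormone carrier of that fluid, had the highest flowthrough CPM of the genes lower by at least 2-fold, with 4675, 4171, 1742 and 9086 CPM against 22745 and 18869.8 CPM (-2.08 ± 0.52, adjusted p = 0.0162). Kl, which encodes klotho, was at 17, 18.1, 7.04 and 36.4 CPM against 122 and 105 CPM (-2.53 ± 0.47, adjusted p = 0.00397), and Enpp2, autotaxin, at 1712, 1416, 1032 and 3941 CPM against 9763 and 6794 CPM (-2.03 ± 0.49, adjusted p = 0.0137). Captured 73 was the highest and captured 62 the lowest of the captured libraries in each. Without flowthrough 132, 1 marker, Kl, was called (Ttr 0.136, Enpp2 0.148). Of 14 ependymal markers 0 passed in edgeR (median -0.12, and -0.98 without captured 73; 0 at an unadjusted p under 0.05, and 0 in DESeq2), Tmem212 being at 64.2, 18.3, 57.0 and 222 CPM against 124 and 64.8 CPM (-0.06 ± 1.02, adjusted p = 0.974). Captured 73 held more of it than either flowthrough library, and the other captured libraries less than either. The blocked fit, which does not rest on captured 73, called 13 of the 14 lower (0.00301 for Tmem212), and the fit without that library 1.

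Vascular markers were also on the flowthrough side. Of 20 endothelial markers 14 were lower and none higher (median -1.26). Emcn, endomucin, was at 20.7, 12.3, 11.7 and 23.9 CPM against 64.4 and 45.8 CPM (-1.69 ± 0.37, adjusted p = 0.00911), and Ly6c1, of brain capillaries, at 137, 105, 100 and 153 CPM against 351 and 359 CPM (-1.52 ± 0.35, adjusted p = 0.0116). Of 14 markers of pericytes and smooth muscle 4 were lower, Abcc9, a subunit of the pericyte potassium channel, at 2.41, 2.51, 2.94 and 4.73 CPM against 15.0 and 12.3 CPM (-2.11 ± 0.38, adjusted p = 0.00354), while the smooth muscle actin Acta2 was at 258, 194, 215 and 268 CPM against 159 and 159.6 CPM (0.55 ± 0.39, adjusted p = 0.328). Of 14 markers of fibroblasts 1 was lower, the growth factor Igf2, at 25.2, 19.7, 11.4 and 28.6 CPM against 74.9 and 66.5 CPM (-1.74 ± 0.40, adjusted p = 0.0120). Captured 73 was the highest captured library for Emcn, Ly6c1, Abcc9 and Igf2, and the fractions did not overlap in any of them. No marker of the 3 lists was called without flowthrough 132 (Emcn 0.128, Abcc9 0.0511, Igf2 0.109). The endothelial count was 8 without captured 132, 6 without captured 60 or 62 and 8 without flowthrough 60, and the pericyte count was 2 without captured 132, 60 or 62 and 1 without flowthrough 60. The blocked fit called 8 pericyte and 5 fibroblast markers lower, with 2 and 1 higher (Acta2 0.0462).

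**Figure D4:**
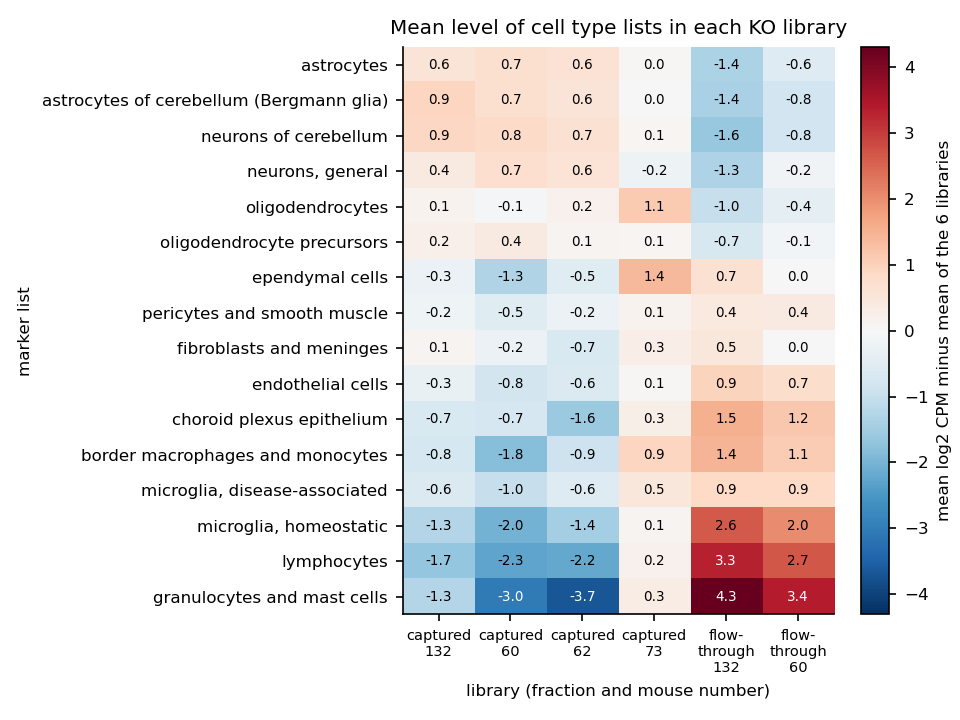
Mean log2 CPM of 16 cell type lists (rows) in the 6 KO libraries (columns), after subtraction of the mean of the 6 libraries in each row; red is above and blue below that mean. Captured 73 lies between the fractions in most rows and is the highest library for oligodendrocytes and ependymal cells, and flowthrough 60 lies nearer to 0 than flowthrough 132 for the astrocyte, neuron and myeloid lists.

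Genes of complement and antigen presentation, and of chemokines and cytokines, were mostly on the flowthrough side. Of 22 genes of complement and antigen presentation 14 were lower and none higher (median -1.75). B2m, the light chain of MHC class I, was at 467, 299, 359 and 638 CPM against 1888 and 1184 CPM (-1.80 ± 0.28, adjusted p = 0.00168), and Cd74, the invariant chain of class II, at 185, 55.8, 161 and 556 CPM against 1973 and 1299 CPM (-2.77 ± 0.74, adjusted p = 0.0214). Of 29 chemokines, cytokines and receptors 15 were lower, among them the TGF-beta receptor Tgfbr1 at 17.5, 11.9, 15.5 and 52.0 CPM against 305 and 183 CPM (-3.33 ± 0.50, adjusted p = 0.00154). The 3 that were higher were Cxcl5, Il33 and Cxcl14. Cxcl5, which attracts neutrophils, was at 42.0, 38.8, 35.2 and 36.1 CPM against 6.33 and 12.3 CPM (2.03 ± 0.29, adjusted p = 0.00120), a difference with no overlap although the neutrophil genes lay on the other side. Il33, an alarmin of glial nuclei, was at 221, 209, 298 and 495 CPM against 78.4 and 122 CPM (1.61 ± 0.37, adjusted p = 0.0113), highest in captured 73. Of 20 interferon-stimulated genes 1, Cmpk2 (1.10 ± 0.35, adjusted p = 0.0422), was higher and 4 lower, beside 9.0% and 14.3% of all genes. Ifit3 was at 115, 46.8, 94.5 and 175 CPM against 126 and 75.8 CPM (0.10 ± 0.42, adjusted p = 0.896). Without flowthrough 132, 3 complement genes and 5 chemokine genes were lower and Cxcl5 alone was higher (Cd74 0.174, Il33 0.167, Cmpk2 0.395). The interferon list then had none; it had 1 lower without captured 132 or 62, 2 without captured 60, 10 without captured 73 and 17 in the blocked fit, and 5 chemokine genes were higher without flowthrough 60.

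Genes used as markers of reactive astrocytes were lower more often than higher (10 and 1 of 35). Among those lower were genes that leukocytes are known to express: Cd44, the hyaluronan receptor, was at 9.85, 6.35, 8.70 and 11 CPM against 38.2 and 26.6 CPM (-1.85 ± 0.27, adjusted p = 0.00145), Srgn, serglycin, at 28.2, 19.3, 19.6 and 50.7 CPM against 183 and 131 CPM (-2.41 ± 0.43, adjusted p = 0.00322), and Lcn2, lipocalin 2 of neutrophils, at 11.4, 2.35, 8.41 and 16.1 CPM against 377 and 188 CPM (-4.88 ± 1.31, adjusted p = 0.0219). Serpina3n, a protease inhibitor induced in astrocytes, was the 1 that was higher, at 29.3, 20.2, 39.9 and 33.3 CPM against 14.5 and 17.1 CPM (0.96 ± 0.29, adjusted p = 0.0345), and it was not called in the blocked fit (0.0519). Vim, vimentin, was at 156, 141, 109 and 195 CPM against 174 and 176 CPM (-0.22 ± 0.22, adjusted p = 0.497). Cd44 and Clcf1 were the 2 genes called without flowthrough 132 (Lcn2 0.145, Serpina3n 0.286), and the blocked fit called 21 lower and 5 higher, Gfap among the latter; 6 were lower without captured 132. The receptors of phagocytosis were divided between the fractions. Megf10, which astrocytes use to engulf synapses, was at 28.3, 25.2, 27.0 and 28.8 CPM against 6.4 and 12.1 CPM (1.56 ± 0.32, adjusted p = 0.00614), and its partner in that function Mertk at 45.3, 60.7, 67.6 and 53.7 CPM against 204 and 153 CPM (-1.65 ± 0.19, adjusted p = 0.000489). The captured libraries did not overlap with flowthrough for either gene, in opposite directions. Itgb5, an integrin of microglia, was at 31.5, 31.1, 29.6 and 41.6 CPM against 118 and 97.7 CPM (-1.69 ± 0.18, adjusted p = 0.000341). In all, 4 of 20 were higher and 8 lower, 1 higher without captured 132, 60 or 62, and Mertk and Itgb5 alone were called without flowthrough 132 (Megf10 0.101).

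Of 24 lysosomal genes 18 were lower and none higher (median -1.27). Gusb, beta-glucuronidase, was at 28.9, 29.5, 36.0 and 39.2 CPM against 125 and 93.5 CPM (-1.71 ± 0.17, adjusted p = 0.000280), Ctsz, cathepsin Z, at 209, 146, 221 and 341 CPM against 1221 and 901 CPM (-2.21 ± 0.30, adjusted p = 0.000926), and Ctsb, cathepsin B, at 1110.5, 862, 1199 and 1781 CPM against 3550.0 and 2534 CPM (-1.30 ± 0.27, adjusted p = 0.00731). The captured libraries were within a narrow range for Gusb, 28.9 to 39.2 CPM, and all below flowthrough. Immediate early genes, which dissociation is known to induce, were lower in 14 of 20 cases (median -1.76). Fos was at 71.2, 35.2, 66.7 and 115 CPM against 404 and 246 CPM (-2.18 ± 0.49, adjusted p = 0.00975), Zfp36 at 66.0, 27.8, 60.0 and 171 CPM against 641 and 483 CPM (-2.79 ± 0.62, adjusted p = 0.00965) and Egr1 at 22.5, 27.6, 30 and 21.0 CPM against 54.9 and 47.4 CPM (-1.02 ± 0.17, adjusted p = 0.00241). The homeostatic microglial list was lower with both sets (20 of 20 members, a summed level of 1109 to 5121 CPM in captured and 19399 to 30529 CPM in flowthrough libraries, none at 0), and its part in them was not tested. Without flowthrough 132 the lower calls were 9 lysosomal genes, Gusb and Ctsz among them but not Ctsb (0.125), and 1 immediate early gene, Egr1 (Fos 0.136); without captured 132 the latter list had 9.

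Few genes of energy production, protein synthesis and macroautophagy were called, beside 9.0% of all genes higher and 14.3% lower. Of 24 nuclear genes of oxidative phosphorylation 2 were higher, Ndufb8 (0.74 ± 0.20, adjusted p = 0.0229) and Ndufb9 (0.85 ± 0.27, adjusted p = 0.0434), and of 13 mitochondrially encoded genes 1, mt-Atp8 (1.21 ± 0.31, adjusted p = 0.0193). Yet every member of both lists was above 0, from 0.18 to 0.85 (median 0.43) in the nuclear list and from 0.16 to 1.21 (median 0.53) in the other. Among the mitochondrially encoded genes mt-Co1, a subunit of cytochrome oxidase, was at 32617, 36983, 29647 and 22740.1 CPM against 13842 and 24096 CPM (0.69 ± 0.37, adjusted p = 0.202). Captured 73 was below flowthrough 60 for mt-Co1 and for 18 of the 24 nuclear genes. Of 24 ribosomal protein genes 0 were called in edgeR (0 at an unadjusted p under 0.05, and 0 in DESeq2). Ndufb8 and Ndufb9 lost their calls without captured 132, 60 or 62. Without captured 73, 14 nuclear genes were called, and in the blocked fit 17 nuclear, 6 mitochondrially encoded and 7 ribosomal genes (mt-Co1 0.0342); none of the 3 lists had a call without flowthrough 132. In macroautophagy 3 of 27 were higher, Wipi1 (1.07 ± 0.21, adjusted p = 0.00501), Gabarapl1 (0.86 ± 0.26, adjusted p = 0.0351) and Map1lc3b (0.69 ± 0.18, adjusted p = 0.0181), and 1 lower, Atg5 (-0.51 ± 0.13, adjusted p = 0.0178), again none of them called without flowthrough 132 (Wipi1 0.0857, Atg5 0.254); the blocked fit called 6 and 5.

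The clock gene of the study was more abundant in the captured cells. Arntl (ENSMUSG00000055116, chromosome 7, 113207465 to 113314122) had 13.3, 9.50, 10.1 and 12.1 CPM against 5.12 and 4.97 CPM, 2.23-fold higher in captured astrocytes (1.16 ± 0.24, adjusted p = 0.00649). The 4 captured libraries, from 9.50 to 13.3 CPM, did not overlap with the 2 flowthrough libraries. The call was lost without flowthrough 132 (adjusted p = 0.0813). The count sums the whole gene and which exons Cre removes is not stated in any label, so it was not tested whether these reads hold intact transcript. Its partner Clock was at 20.7, 25.4, 17.5 and 22.8 CPM against 18.1 and 21.5 CPM (0.12 ± 0.22, adjusted p = 0.720) and the related Npas2 at 15.5, 20.5, 18.7 and 11.3 CPM against 4.65 and 10.7 CPM (1.10 ± 0.40, adjusted p = 0.0671; 0.00907 in the blocked fit). Of 15 genes that BMAL1 activates 1 was higher, Cry2 (0.68 ± 0.22, adjusted p = 0.0418), and 1 lower, Nampt (-0.65 ± 0.20, adjusted p = 0.0361), with a median of -0.14. Per2 was at 8.14, 6.42, 7.27 and 5.61 CPM against 8.29 and 10.7 CPM (-0.47 ± 0.29, adjusted p = 0.258), Nr1d1, which encodes REV-ERB alpha, at 76.7, 63.6, 96.5 and 65.2 CPM against 95.4 and 68.6 CPM (-0.12 ± 0.21, adjusted p = 0.714) and Dbp at 9.34, 6.47, 5.95 and 7.88 CPM against 9.43 and 6.93 CPM (-0.14 ± 0.22, adjusted p = 0.682). The ranges of the fractions met or overlapped for Nr1d1 and Dbp, and Ciart, with 35.1, 20.2, 42.4 and 19.7 CPM against 43.6 and 27.1 CPM (-0.27 ± 0.44, adjusted p = 0.700), varied as much within a fraction as between them. Of 8 genes that REV-ERB represses 3 were higher: Arntl, Rora at 147, 134, 141 and 106 CPM against 43.9 and 66.9 CPM (1.25 ± 0.23, adjusted p = 0.00377) and Rorb (1.35 ± 0.39, adjusted p = 0.0277). Cry2, Nampt and Rorb lost their calls without captured 132, 60 or 62, and no clock gene was called without flowthrough 132 (Cry2 0.395, Nampt 0.395, Rora 0.0765, Rorb 0.279). Of the genes activated by BMAL1, 3 were higher and 2 lower without captured 73, and 4 and 4 in the blocked fit, Tef (0.0141), Hlf (0.00576), Per3 (0.00636) and Bhlhe41 (0.00824) among them. The time of day of collection is not given in the sources used here.

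The E-box letters CACGTG read the same on both strands. Their shares are of windows and not of genes, since not every gene has a window and some have several. The letters are found in the 250 bases upstream in 6.02% of the 32851 promoter windows searched and in 7.48% of those of genes tested. They are found in 6.15% of the windows of genes higher in captured astrocytes and in 7.25% of those of genes lower. Ciart is shown because its window (minus strand, chr3:95882259-95882358) holds 3 of them, in capitals, 116, 58 and 44 bases upstream of the start, beside an expression that was not called different.
Ciart: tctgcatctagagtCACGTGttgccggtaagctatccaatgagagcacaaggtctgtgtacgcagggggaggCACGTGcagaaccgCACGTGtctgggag

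In the 2 mice with both fractions the difference can be taken within the mouse, captured minus flowthrough. Across the 20997 genes, which are not independent replicates, the differences of mouse 132 and mouse 60 had a Pearson r of 0.797. Over the called genes, which were chosen with these libraries, the median size was 1.73 in mouse 132 and 1.26 in mouse 60. The size differed by cell type. The astrocyte median was 2.10 in mouse 132 and 1.33 in mouse 60, the general neuronal median 1.82 and 0.91, and the oligodendrocyte median 1.11 and 0.31. The microglial median was -3.93 and -4.14, and that of granulocytes -5.39 and -6.98. Mouse 132 thus had the wider gap for neural genes and mouse 60 for blood and microglial genes. Atp1b2 differed by 2.24 and 1.58, P2ry12 by -4.43 and -4.59, and Arntl by 1.37 and 0.93. A fit of these 2 pairs alone, with 1 residual degree of freedom, called 3399 genes higher and 4333 lower, and whether the 2 mice differed was not tested.

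The same comparison in the WT mice takes the other 6 libraries but comes from the same 12-library fit. Filter, scaling and spread were shared, so the calls in KO and in WT are not independent. It had more calls: 7950 of 20997 genes (37.9%), 4068 higher and 3882 lower. Without captured KO library 73, for example, 4535 were higher in WT. Of the genes called in KO, 86.4% were called in the same direction in WT, and 2 in the opposite direction, while 53.2% of those called in WT were called in KO. In 38 of 52 lists the WT median was farther from 0: 2.18 against 1.51 in KO for astrocyte markers, 2.92 against 1.96 for cerebellar neurons, -2.99 against -1.93 for choroid plexus and -6.20 against -4.97 for granulocytes. Without captured 73 the number was 32 of 52, and the KO medians of granulocytes (-6.30), lymphocytes (-5.42 against -5.18 in WT) and homeostatic microglia (-3.85 against -3.76) were then the farther ones. The endothelial median went the other way, -0.90 against -1.26. The difference of the differences was tested as an interaction. In edgeR 0 genes passed (828 had an unadjusted p under 0.05, and the smallest adjusted p was 0.934), in limma-voom 0, and in DESeq2 8. A p above the threshold does not show that the differences were equal.

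**Figure D5:**
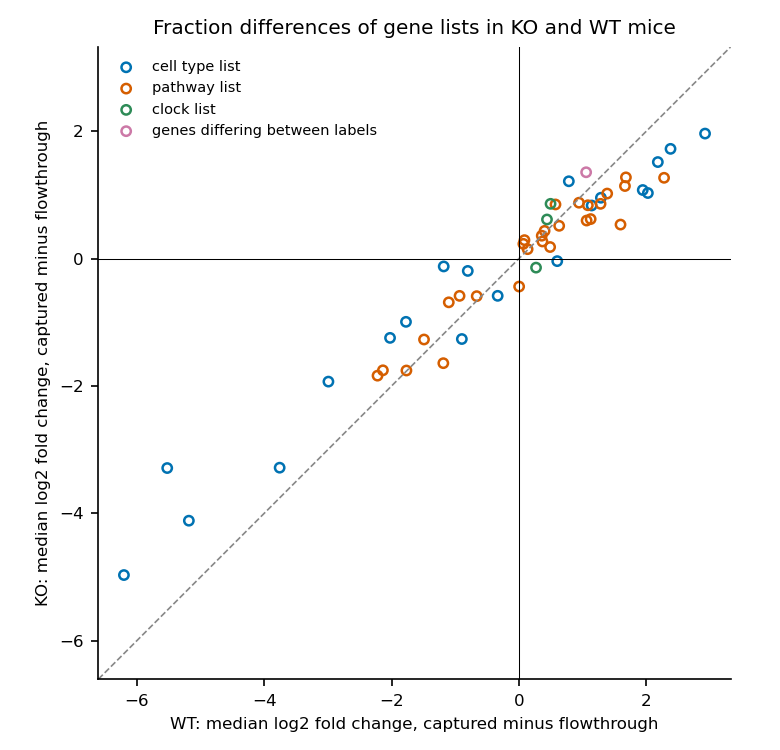
Median log2 fold change, captured astrocytes minus flowthrough, of 52 gene lists in KO (vertical axis) against WT mice (horizontal axis); each circle is 1 list, colours give the kind of list and the dashed line marks equal medians. Microglia, lymphocytes and granulocytes lie at the lower left and astrocytes and cerebellar neurons at the upper right in both labels, and 38 of the 52 medians are nearer to 0 in KO (32 without captured 73).

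Of the 8 genes called by DESeq2, 5 had a positive interaction (KO difference minus WT difference) and 3 a negative interaction. The sign does not give which difference was larger in size. Slc5a8, a transporter of monocarboxylates, was at 6.64, 6.21, 7.46 and 6.44 CPM against 1.21 and 1.56 CPM in KO (2.27 ± 0.49, adjusted p = 0.00819), and in WT it was at 1.15, 0.528, 0.757 and 0.282 CPM in captured 56, 57, 64 and 78 against 2.12 and 1.03 CPM in flowthrough 56 and 64 (-1.20 ± 0.44). The interaction was 3.47 ± 0.65 with an unadjusted p of 0.000208 in edgeR and an adjusted p of 0.000999 in DESeq2. Mfsd2a, the lipid transporter of the blood-brain barrier, was at 13.3, 10.8, 15.7 and 11.3 CPM against 11.5 and 10.4 CPM in KO (0.22 ± 0.19, adjusted p = 0.433) and at 33.1, 26.7, 34.2 and 24.9 CPM against 8.56 and 8.88 CPM in WT (1.77 ± 0.21). Lrrn3, a leucine-rich repeat protein of neurons, was at 8.92, 8.74, 7.51 and 7.63 CPM against 17.3 and 13.7 CPM in KO (-0.92 ± 0.16, adjusted p = 0.00291) and at 8.19, 8.27, 9.12 and 8.45 CPM against 7.31 and 7.34 CPM in WT (0.22 ± 0.17). The group that stood apart was KO captured for Slc5a8, WT captured for Mfsd2a and KO flowthrough for Lrrn3. The others were Prokr2, Col19a1, Oas2 and Arhgef3, with a positive interaction, and Fam19a1, with a negative interaction.

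Genes that differed between KO and WT astrocytes in an earlier analysis of these libraries were checked for the fraction that holds them in KO mice. Of 20 such genes 12 were higher in captured cells and 1, Lrrn3, lower (median 1.35). The list was chosen on these samples and is not independent evidence of a direction. Spon2, a secreted matrix protein, was at 122, 122, 135 and 77.5 CPM against 11.8 and 23.0 CPM in KO (2.72 ± 0.73, adjusted p = 0.0215). Its WT levels were 1.13, 0.322, 0.267 and 1.65 CPM in captured and 1.21 and 0.178 CPM in flowthrough libraries, so that in KO both fractions lay above WT and the captured one the more. Cyp4f15, a fatty acid hydroxylase, was at 18.8, 19.6, 23.6 and 16 CPM against 5.05 and 6.57 CPM (1.75 ± 0.28, adjusted p = 0.00216), and Slc20a2, a phosphate transporter, at 133, 132, 137 and 98.6 CPM against 37.6 and 56.3 CPM (1.42 ± 0.21, adjusted p = 0.00146). Chil1, a chitinase-like protein, was at 46.0, 34.4, 52.3 and 43.6 CPM against 52.6 and 35.1 CPM (0.01 ± 0.24, adjusted p = 0.988), with the ranges of the fractions overlapping. Hsd11b1, which regenerates active glucocorticoid, was at 36.5, 28.7, 34.7 and 17.9 CPM against 18.1 and 13.1 CPM (0.92 ± 0.26, adjusted p = 0.0269). Without flowthrough 132, 3 were higher and none lower; Cxcl5, Slc20a2 and Nat8 kept their calls, and Spon2 (0.230) and Hsd11b1 (0.0948) did not, nor did Lrrn3 (0.0773).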

How the data were processed

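RNA of the 12 libraries was made with SMARTer v1 after Trizol and PureLink extraction, per the labels' protocols. The submitters' processing notes name bcl2fastq, STAR 2.5.1a, Subread and featureCounts 1.4.6-p5 with the genome build GRCm38; strand setting, treatment of multimapping reads and gene annotation release are stated in no label or header. The deposited tables hold raw counts per gene, from which the authors' CPM and RPKM columns follow by total and length, per the file headers (largest difference 5.1e-11 for CPM). Counts alone were tested; RPKM is the deposited value, used to compare levels between genes.

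Of 41388 gene identifiers 40254 had a symbol, and 20997 passed filterByExpr and were tested with edgeR 4.0.16 (R 4.3.3), using TMM scaling, 4 group means over all 12 libraries and glmQLFTest, two-sided. Alternatives used limma 3.58.1 and DESeq2 1.42.0, other scalings and filters, left-out libraries and the mouse as a block. Deviations of the 2 fractions of 1 mouse from their group means correlated at -0.0066 (mouse 132), 0.155 (56), 0.352 (60) and 0.251 (64) across genes; the pairing rests on the mouse number, and blocked values stand beside results they change. Replicates are separate mice. The fits were tested on simulated data.

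Members, the 53 lists (1033 of 1041 memberships tested) and tests were chosen with earlier results of these data known, and some list genes were taken from that work. Genes were named by rule: the clock genes, Atp1b2, Aldh1l1, Xist and Ddx3y; the 12 largest called differences in each direction without overlap, at a mean log2 CPM of 3 or more; the 10 with the highest CPM at 2-fold or more in each direction; in each list the 4 smallest p, the 3 highest CPM and up to 4 called against the list's sign; the 8 smallest interaction p in each direction; and the list of label differences. Of the 375 genes so named 272 were called and 76 stayed called without flowthrough 132. Promoter sequences are from RefSeq (GRCm38.p6), which had an entry for 275 of the 375. A few of the genes so named are not reported here.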

Additional observations from a re-analysis of the deposited data

Results flagged for a closer look

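In the 4 captured KO libraries the gap of the highest or lowest value to the next was set against the range of the 4, for 221 genes named in the text and 53 list sums; 29 exceeded the Dixon 95% limit for 4 values, where chance gives about 1 in 20, and 25 of these were in captured 73. The flags share libraries, so they are not independent, and their cause was not tested.

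Captured 73 stood high for genes of myeloid cells. It had 121 CPM of C1qc (the other 3 had 20.5 to 32.6), 121 CPM of F13a1 (14.8 to 30.4), 24.8 CPM of Irf8 (5.19 to 8.36), 6.89 CPM of Ikzf1 (2.07 to 2.70), 41.6 CPM of Itgb5 (29.6 to 31.5) and 52.0 CPM of Tgfbr1 (11.9 to 17.5). It was also high for Mki67 (1.74 CPM), Atf3 (26.0 CPM), Slc16a3 (2.64 CPM), the oligodendrocyte gene Tspan2 (162 CPM), Sox11 (77.5 CPM), Cd24a (69.0 CPM) and the summed neural stem cell list (194 CPM against 118 to 131).

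The same library stood low for other genes. It had 1449 CPM of Slc1a3 (2321 to 2464 in the others), 238 CPM of Timp4 (445 to 485), 24.6 CPM of Npas3 (35.3 to 36.3), 3.85 CPM of Pax3, 98.6 CPM of Slc20a2, 45.8 CPM of Nlgn3, 32.3 CPM of Atg5 and 1555 CPM of Aldoa. Its summed level was 851 CPM for receptors (1424 to 1521) and 6276 CPM for synapse-shaping factors (12654 to 13366). With 45.1 CPM of Xist and a summed sex-linked level of 47.2 CPM, it was of female type.

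Captured 62 had 327 CPM of Hbb-bs and 843 CPM of the red cell list (138 to 166 in the others). Captured 60 had 26.2 CPM of Nqo1 (35.7 to 37.4) and 7119 CPM of the potassium and ion list (6642 to 6707).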

How the results depend on the processing

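With the mouse as a block, 3789 genes were higher and 4630 lower in the 12-library fit, 3399 higher for the pairs of mice 132 and 60 alone, and 3935 higher and 4955 lower with the block as a random effect. The number higher was 2879 with DESeq2, 793 in the 6 KO libraries alone and 3027 in the libraries of male type. The last fit left out captured KO 73 and also captured WT 78, whose summed sex-linked level was 28.1 CPM. The 6 KO libraries alone, which take no spread from the WT libraries, gave 2025 lower. Of the genes named, 42 lost their call in that fit and 1 gained a call. Aldh1l1 was among those lost (adjusted p = 0.0933 in edgeR). An adjusted p under 0.01 left 458 higher and 1380 lower in KO, and 2331 and 2359 in WT. A null of 1.5-fold left 404 and 1598 in KO, and 2332 and 2339 in WT. Leaving out 1 library gave 91 (flowthrough 132) to 2931 (captured 73) higher and 683 to 3881 lower in KO, and 1345 (WT flowthrough 64) to 4535 higher and 2012 to 4352 lower in WT. DESeq2 called 5 interactions higher and 3 lower. The other counts, under other scalings, filters and limma-voom, stayed within 1.5 times, and no gene called in the KO comparison was called in the opposite direction by any of them. All of these fits reuse the same libraries, so the absence of reversals is not independent evidence.

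Of the 221 genes named, 122 lost their call without flowthrough 132 and 29 to 32 without captured 132, 60 or 62; the block gave a call to 24 and took 1, Serpina3n, away. The text gives these blocked values for all but Oas2, and the block changed no other call among them. The KO flowthrough has 2 libraries, and the design has 8 residual degrees of freedom, or 2 with the mouse as a block. On simulated data with these libraries 13 of 100 genes changed 2-fold and 64 of 100 changed 4-fold were called. The other 20797 genes were unchanged there, while 23.3% of genes were called in the data. Recovery after adjustment depends on that share, so these rates do not carry over to this comparison. A missing call still does not show equal levels. Depth of 44.7 to 51.6 M counts limits only genes of few reads.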

Other observations

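Of 14 markers of neural stem cells and neuroblasts, 1 was higher and 2 were lower, and the members did not move together (median -0.04). Egfr, the receptor of epidermal growth factor, was at 15.2, 15.8, 13.5 and 13.7 CPM against 7.03 and 9.77 CPM (0.80 ± 0.24, adjusted p = 0.0346; 0.350 without flowthrough 132, and the call was also lost without captured 132, 60 or 62). Sox11, a factor of newborn neurons, was at 62.8, 60.5, 62.5 and 77.5 CPM against 29.3 and 47.1 CPM (0.79 ± 0.27, adjusted p = 0.0522; 0.0304 in the blocked fit), and Cd24a, a surface protein of neuroblasts and of ependyma, at 18.2, 12.2, 15.3 and 69.0 CPM against 63.9 and 43.4 CPM (-0.90 ± 0.64, adjusted p = 0.331; 9.1e-05). The lower members were the proliferation genes Mki67 and Top2a; in the blocked fit 5 were higher and 4 lower, and 4 were higher without flowthrough 60.

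Several genes on the captured side kept their calls in each of the 6 fits that left out 1 KO library, although they belong to no cell type list. Th, tyrosine hydroxylase of catecholamine synthesis, was at 27.0, 25.1, 32.8 and 16.9 CPM against 4.43 and 7.07 CPM (2.15 ± 0.31, adjusted p = 0.00136; 2.18 ± 0.31 in WT). Fam20a, a pseudokinase of secreted proteins, was at 18.0, 20.8, 19.1 and 16.9 CPM against 2.81 and 5.35 CPM (2.20 ± 0.27, adjusted p = 0.000652; 2.75 ± 0.28 in WT). Nat8, an N-acetyltransferase, was at 7.93, 8.50, 7.39 and 8.63 CPM against 2.47 and 3.18 CPM (1.52 ± 0.25, adjusted p = 0.00209; 1.81 ± 0.25 in WT). In all 3 the fractions did not overlap, and the WT difference had the same sign. Cox4i2, an isoform of a cytochrome oxidase subunit that pericytes express, differed by -0.97 ± 0.19, adjusted p = 0.00519 in KO and by 0.22 ± 0.20 in WT (interaction -1.19 ± 0.28, unadjusted p = 0.00117, not called after adjustment in edgeR), with 7.12, 5.71, 7.61 and 5.71 CPM against 12.1 and 13.6 CPM in KO.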
